A study of Citrus sinensis and Citrus junos and Citrus trifoliata with 12 samples.

Results

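Roots and leaves of grafted orange trees were compared in 4 of the 12 RNA-seq libraries of the series, taken by the organ and rootstock in their labels. The 2 root libraries came from the rootstock, trifoliate orange (Poncirus trifoliata, written Pt), and the 2 leaf libraries from the scion grafted on it, 'Lane Late' navel orange (Citrus sinensis). Organ and species differed together, so a difference between root and leaf cannot be told apart from one between Pt and navel orange. Both groups share the developmental stage 140 DAF, trees that stood in one orchard since 2009, and sequencing in 2015. Saline-alkali stress is the subject in the title of the series, but no label separates stressed from unstressed trees. The submitters call the replicates biological but do not name the trees they were taken from, and a p-value here reflects the spread between 2 libraries a group, which may be technical.

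In a grafted tree the root system keeps the genome of the rootstock, while stem, leaf and fruit carry that of the scion. Roots take up water and mineral ions and anchor the tree, and their transcripts commonly include those for membrane transporters, cell-wall enzymes and secreted defence proteins. Leaves fix carbon, and nuclear genes for the chloroplast are usually among their most abundant transcripts. Many plant genes also yield several transcripts, through alternative splicing or alternative ends, and organs can differ in which of these they use.

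The libraries held 9487777 and 9356633 estimated counts in root and 11364132 and 10968748 in leaf. Roots listed 20953 and 21083 genes and leaves 22306 and 22212, out of 24803 gene IDs seen in the 4 libraries. None of these IDs (0 of 24803) matched a table of 29331 RefSeq genes, and the files do not pair them with names. No function is therefore given to any ID, and the organ labels were not checked against marker genes. Replicates lay close together: across the 19544 genes tested, Pearson's r of log2 CPM (counts scaled to library size) was 0.987 in root and 0.988 in leaf, against 0.451 to 0.460 between the organs. Genes are not independent replicates, so these values describe the libraries. A principal component analysis put 97.7% of the variance on the axis that parted root from leaf. The biological coefficient of variation between replicates was 8.92% in root and 11.8% in leaf.

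Most genes that could be tested differed between root and leaf. The quasi-likelihood test of edgeR, adjusted by Benjamini-Hochberg over all genes tested, gave 16089 of 19544 genes (82.3%) an adjusted p under 0.05; 7443 (38.1%) were higher in root and 8646 (44.2%) were lower in root. The median log2 fold change was 1.59 among the genes higher in root and -2.32 among those lower in root. Leaf-biased genes were thus both more numerous and, at the median, further apart between the organs. Both species were counted on the same IDs, and the part of sequence differences between them in this lean was not tested. Counting libraries without a test, both root libraries lay above both leaf libraries in 8355 genes (42.7%) and below them in 9526 (48.7%). As these are bulk samples, fewer cells of a type and less RNA per cell cannot be told apart.

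Leaf-biased genes outnumbered root-biased genes past each threshold tried, but not among the smaller differences. A test against a 2-fold threshold (edgeR's glmTreat, adjusted p under 0.05) called 10725 genes (54.9%), 4592 higher (23.5%) and 6133 lower (31.4%) in root. At a fitted difference of at least 4-fold, 2918 called genes (14.9% of those tested) were higher and 4829 (24.7%) lower in root. Among called genes under 4-fold the balance went the other way, with 4525 higher and 3817 lower in root. At least 16-fold, the numbers were 1209 (6.19%) and 2170 (11.1%), and at least 64-fold 486 (2.49%) and 849 (4.34%). In these last counts a gene with no counts in one organ was set to its lower bound, which uses 3 counts over both libraries of that organ. The balance depends on scaling. Without TMM factors the median log2 fold change of all genes moved by -0.37 to -0.53 and the calls split into 6101 higher and 10052 lower in root, so the excess of leaf-biased calls did not turn.

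**Figure D1:**
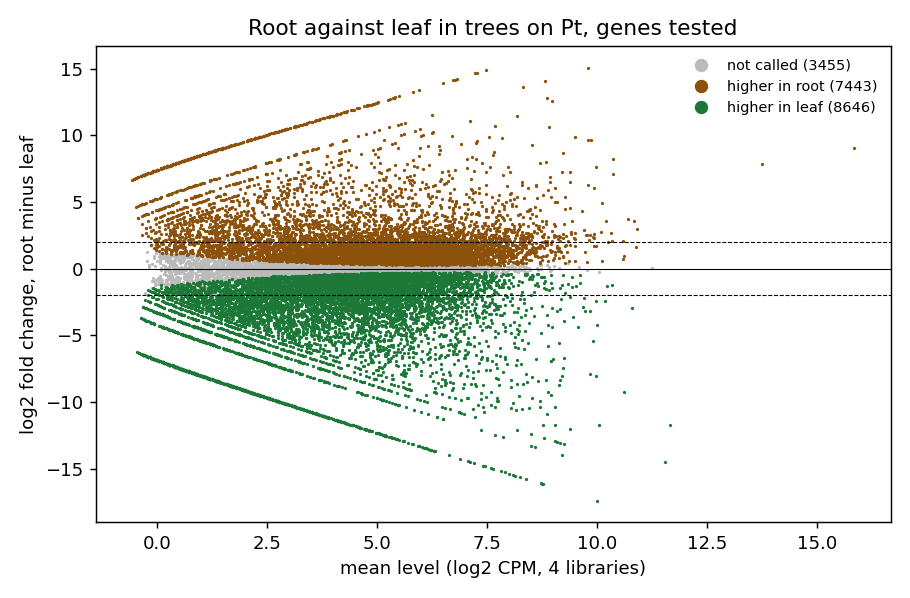
Each point is a gene: the horizontal axis is its mean level (log2 CPM over the 4 libraries) and the vertical axis its log2 fold change, root minus leaf, with dashed lines at 4-fold. Brown points are the 7443 genes called higher in root, green points the 8646 called lower in root and grey points the 3455 not called; the slanted lines of points at the edges are genes with very few or no counts in one organ, whose fitted value depends on a prior count.

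A smaller set of genes held a like level in both organs. For 4326 of the tested genes (22.1%) the 95% interval of the log2 fold change lay inside -1 to 1, that is, within 2-fold in either direction. Of these, 1736 were nevertheless called, at differences under 2-fold. The 3455 genes that were not called split into 2590 with an interval that narrow and 865 with a wider one, which also took in differences larger than 2-fold. The median standard error of a log2 fold change was 0.19. Which genes count as alike depends on scaling. Without TMM factors the median log2 fold change of all genes moved by -0.37, and the set was not counted again on that scale.

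A single gene dominated the root libraries. Cs7g25130, listed with 1 transcript of 4416 bases, stood at 123380 and 111865 CPM in the root libraries and at 228 and 207 CPM in the leaf libraries. It was the most abundant gene in both root libraries and ranked 554 and 603 in leaf. Its share of all counts was 10.3% ± 0.440 in root and 0.0247% ± 0.00122 in leaf (SD, n = 2 each). The log2 fold change was 9.08 ± 0.33 (SE), and edgeR gave an adjusted p = 4.5e-09. Per length it stood at 23123 ± 984 FPKM in root and 55.1 ± 2.72 FPKM in leaf (SD, n = 2 each). Its counts were not whole numbers, a mark of reads split over more than 1 gene, so near copies may share its reads.

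The gene with the largest rise in root among those counted in all 4 libraries was Cs1g04650, listed with 4 transcripts. It stood at 968 and 903 CPM in root and at 0.157 and 0.0792 CPM in leaf, where it had 2 counts in one library and 1 in the other. All root values lay far above all leaf values. The fitted log2 fold change was 12.81 ± 0.26 (SE, edgeR adjusted p = 9.6e-10). With so few leaf counts the ratio is loosely known: pooled counts gave a root to leaf ratio of 7900, with an exact 95% counting interval from 2703 to 38310. Its counts were rounded estimates that were not whole in all 4 libraries, so near copies may share its reads. The interval does not cover this.

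In leaf the most abundant gene was Cs6g18680, listed with 1 transcript of 1542 bases. It stood at 6909 and 5949 CPM in leaf and at 1.71 and 2.03 CPM in root, where its rank by count in replicate 1 was 15583. It took 0.729% ± 0.0632 of leaf counts (SD, n = 2), a far smaller share than the leading root gene took of root counts. The log2 fold change was -11.74 ± 0.27 (SE, edgeR adjusted p = 9.6e-10). Its counts were whole in all 4 libraries.

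Next to it in leaf stood orange1.1t05126, the gene with the largest fall in root among those counted in every library. It stood at 6526 and 5391 CPM in leaf, second in both libraries, and at 0.244 and 0.239 CPM in root, with 2 counts in each root library. The fitted log2 fold change was -14.52 ± 0.33 (SE, edgeR adjusted p = 9.6e-10), and pooled counts gave a leaf to root ratio of 24683 (exact 95% counting interval 9640 to 90593). Its counts too were rounded estimates that were not whole in all 4 libraries, so near copies may share its reads, which the interval does not cover. For this gene as for Cs6g18680, both libraries of an organ agreed to within a small part of the gap between organs.

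**Figure D2:**
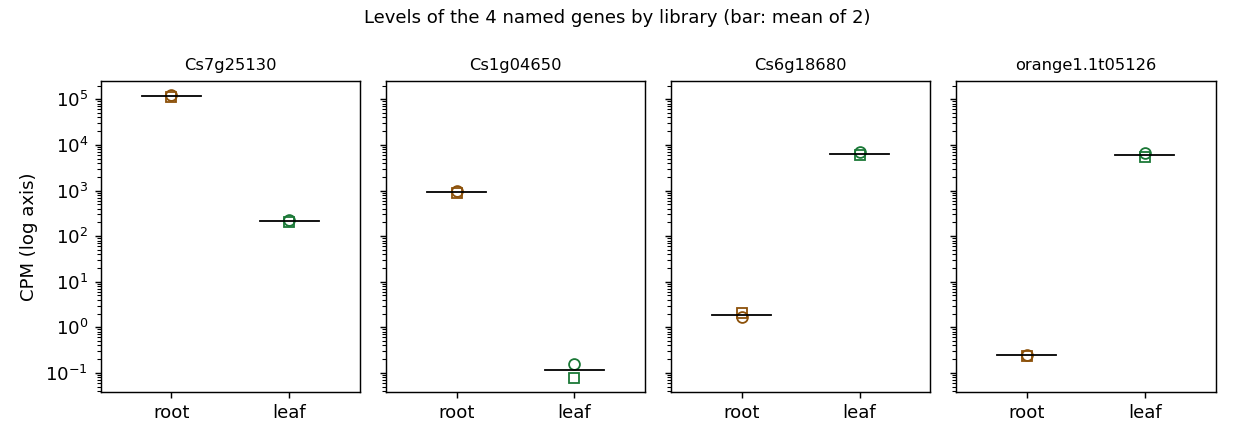
CPM (log axis) of Cs7g25130, Cs1g04650, Cs6g18680 and orange1.1t05126 in the root (brown) and leaf (green) libraries; circles are replicate 1, squares replicate 2 and bars the mean of 2. The organs do not overlap for any of the 4 genes, and the replicates nearly coincide on this scale.

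Root counts were concentrated in fewer genes than leaf counts. The 10 most abundant genes took 15.4% and 14.1% of counts in the root libraries and 3.70% and 3.42% in the leaf libraries. The 100 most abundant took 25.2% and 23.7% in root against 13.9% and 13.5% in leaf, and the 1000 most abundant 53.4% and 51.8% against 41.0% and 40.4%. It took 821 and 902 genes to reach 50% of counts in root, and 1605 and 1654 in leaf. Leaving out the top gene of each library, the numbers were 1115 and 1189 in root and 1634 and 1680 in leaf, so root stayed more concentrated without Cs7g25130. On the scale of summed FPKM the gap was narrower, with 21.4% in root and 17.7% in leaf for the 100 most abundant genes (means of 2). Cs7g25130 alone held 4.41% and 4.16% of root FPKM, a share about as large as this gap. Leaving out the top gene of each library, 986 and 1064 genes reached 50% of summed FPKM in root and 1318 and 1358 in leaf.

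**Figure D3:**
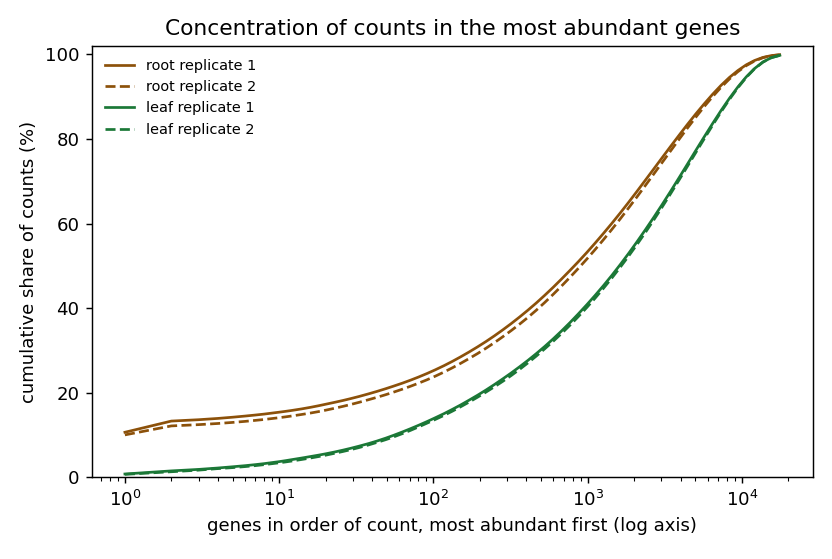
Cumulative share of counts (vertical axis, %) against the number of genes taken in order of abundance (log axis), with root in brown, leaf in green, replicate 1 solid and replicate 2 dashed. The root curves start at 10.6% and 10.0%, against 0.774% and 0.684% in leaf, and lie above the leaf curves at least up to 17602 genes.

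The most abundant transcripts of the organs were largely different genes. Of the 100 genes with the highest mean share in root, 8 (8% of each list) were also among the 100 highest in leaf. Of the 1000 highest, 325 (32.5% of each list) were shared. The top 100 root genes had a median rank of 708 in leaf, while the top 100 leaf genes had a median rank of 6156 in root. Among the top 100 root genes 97 were called higher in root, and among the top 100 leaf genes 91 were called lower and 5 higher in root. These lists were picked by level in the libraries that were then compared, so their direction is in part fixed by the choice, and the counts are a description.

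Organ-biased genes held a large part of each organ's counts. The 2918 genes at least 4-fold higher in root took 43.5% and 42.1% of root counts and 4.45% and 4.36% of leaf counts. Without Cs7g25130 the other 2917 took 32.8% and 32.1% of root counts. The 4829 genes at least 4-fold lower in root took 37.5% and 37.0% of leaf counts and 1.85% and 2.02% of root counts. The 3455 genes that were not called took 10.3% and 10.7% in root and 13.4% in each leaf library. The classes were set by these same libraries, so the shares describe the size of the difference and are not a test of it.

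**Figure D4:**
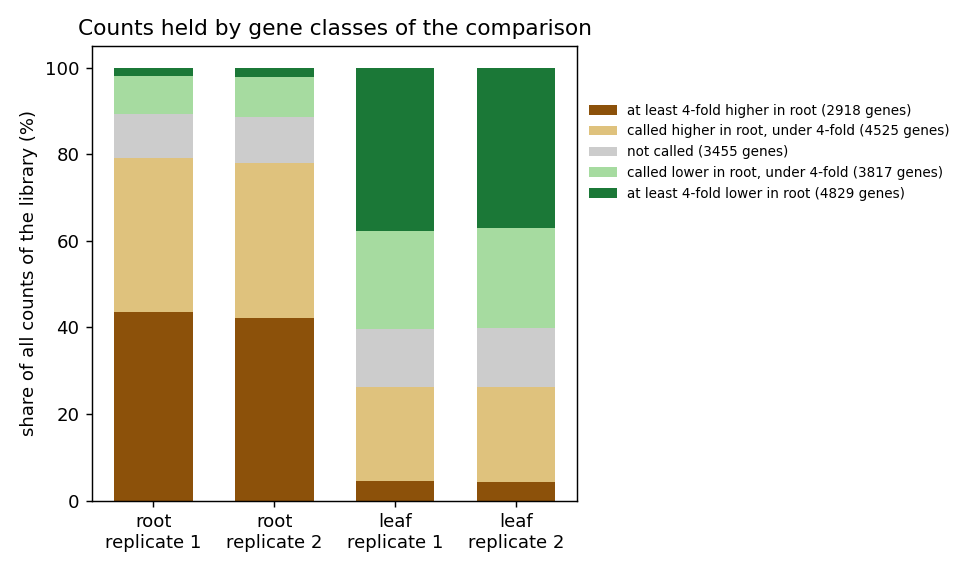
Stacked bars give, for each library, the share of all counts (%) held by 5 classes of tested genes, from at least 4-fold higher in root (dark brown) to at least 4-fold lower in root (dark green). The dark brown class falls from 43.5% and 42.1% in root to 4.45% and 4.36% in leaf, and the dark green class rises from 1.85% and 2.02% to 37.5% and 37.0%.

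Some genes were listed in one organ and not in the other. In both root libraries but neither leaf library 976 genes were listed, and in both leaf libraries but neither root library 1760. Most were rare. With at least 20 counts in both libraries of the organ, 272 were left for root and 638 for leaf, and with at least 50 counts 160 and 411. Thinning every library to 9356624 counts gave 1022 and 1708. That step matched the totals only, and Cs7g25130 held 10.3% of the counts in root. Thinning to equal TMM-scaled totals instead, an alternative chosen after seeing the data, gave 1095 and 1615. Genes listed in one organ took 0.624% and 0.614% of counts in the root libraries and 2.56% and 2.51% in the leaf libraries.

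A few of the genes listed in one organ were abundant. At a mean of 100 CPM or more there were 9 such genes in root and 38 in leaf. The highest in root stood at 409 and 312 CPM (3350 and 2612 counts), at least 3046-fold above leaf when leaf is set at 3 counts over its libraries. The highest in leaf stood at 2117 and 1995 CPM (26942 and 25174 counts), at least 11351-fold above root on the same rule. The same IDs served for Pt and for navel orange. A gene that is absent from Pt, silent in its roots or too different in sequence to be counted there would in each case be listed in leaf alone, and these cases cannot be told apart here.

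The split between root-biased and leaf-biased genes differed between classes of level. Of 2251 genes at 100 to 1000 CPM (mean over the 4 libraries), 1334 were higher and 659 lower in root, 59.3% and 29.3% of the class, against 38.1% and 44.2% of all tested genes. Of 6270 genes at 1 to 10 CPM, 1854 (29.6%) were higher and 3106 (49.5%) lower in root. The median log2 fold change was 0.72 in the first class and -0.73 in the second. The 10385 genes in between, at 10 to 100 CPM, split into 4103 higher and 4480 lower. Of 604 genes under 1 CPM, 132 were higher and 389 lower. The classes were set by level in these same libraries, and a rare gene could pass the filter through 1 organ alone. The filter came before TMM scaling, so its cutoff lay at a lower scaled level in leaf than in root. Direction may in part follow from these choices, which was not tested, and the counts are a description.

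Short genes leaned further to leaf than long genes. Tested genes were put in 4 length classes of nearly equal size. In the shortest class, 150 to 1150 bases, 1636 of 4887 genes were higher in root and 2374 lower, and the median log2 fold change was -0.56. The next classes had medians of -0.26 and -0.05. In the longest class, 2394 bases and more, 2038 of 4882 were higher and 1927 lower, with a median of 0.07 that turned to -0.30 without TMM factors and to -0.23 on log2(FPKM + 1). Set against the median of all genes, the shortest class stood at -0.40 and the longest at 0.23, and on log2(FPKM + 1) at -0.32 and 0.22. Level moved with length: the median level was 6.72 CPM in the shortest class and 37.1 CPM in the longest, and its part in the pattern was not tested.

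IDs of the form orange1.1tN (N for digits) leaned further to leaf than those of the form CsNgN. Of 3069 tested orange1.1tN genes 951 were higher in root (31.0%) and 1527 lower (49.8%), with a median log2 fold change of -0.52. Of 16475 CsNgN genes 6492 were higher (39.4%) and 7119 lower (43.2%), with a median of -0.10. The orange1.1tN genes had a lower median level, at 12.7 CPM against 20.8 CPM, and a median length of 1527 against 1731 bases. Among the 9 starts Cs1g to Cs9g the share called higher in root ran from 37.2% to 40.8% and the share called lower from 41.5% to 45.1%. The share called higher among orange1.1tN genes lay below, and the share called lower above, those of all 9 starts.

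Genes with more transcripts differed less strongly. Of 12138 tested genes with 1 listed transcript, 18.9% were called higher in root by 4-fold or more, and 28.6% lower by as much. Of 3743 genes with 2 transcripts the shares were 9.27% and 20.9%, and of 3663 with 3 or more 7.62% and 15.7%. The share called at any size hardly moved, at 83.2%, 81.2% and 80.7%. Level rose along the same classes, with medians of 11.1, 29.4 and 46.7 CPM.

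Root and leaf also differed in the deposited length of many genes. This length was whole in every gene with 1 transcript. In genes with several it was often fractional and differed between libraries, so it is read here as a mean over transcripts weighted by their use in each library, a reading taken from the values that no label or header states. Among 6430 genes with several transcripts and at least 20 counts in every library, 6062 had a length that was not identical in all 4 libraries. Limma on log2 length called 1225 of these (20.2%, adjusted p under 0.05), 316 (5.21%) longer and 909 (15.0%) shorter in root. With the replicate number as a block the same test called 0 of 6062. Whether same-numbered libraries share a tree is not known. At least 10% longer in root were 121 of the called genes, and at least 10% longer in leaf were 390.

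The excess of shorter lengths in root was present whatever the gene's level did. Among 2548 genes of this group called higher in root, 523 (20.5%) had a called length, 116 longer and 407 shorter in root. Among 2247 called lower in root, 465 (20.7%) had one, 135 longer and 330 shorter. Among 1267 genes whose level was not called, 237 (18.7%) had one, 65 longer and 172 shorter. The share with a called length thus lay between 18.7% and 20.7% in the 3 groups. It rose with the number of transcripts, from 16.4% of 2745 genes with 2 transcripts to 31.1% of 834 genes with 5 or more.

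The number of length calls rested on all 4 libraries, although the lean did not turn. It was 248 (46 longer and 202 shorter in root) without root replicate 1, 407 (72 and 335) without root replicate 2, 675 (261 and 414) without leaf replicate 1 and 636 (258 and 378) without leaf replicate 2. Without a test, both root libraries lay below both leaf libraries in length for 2841 of the 6062 genes and above them for 1291.

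**Figure D5:**
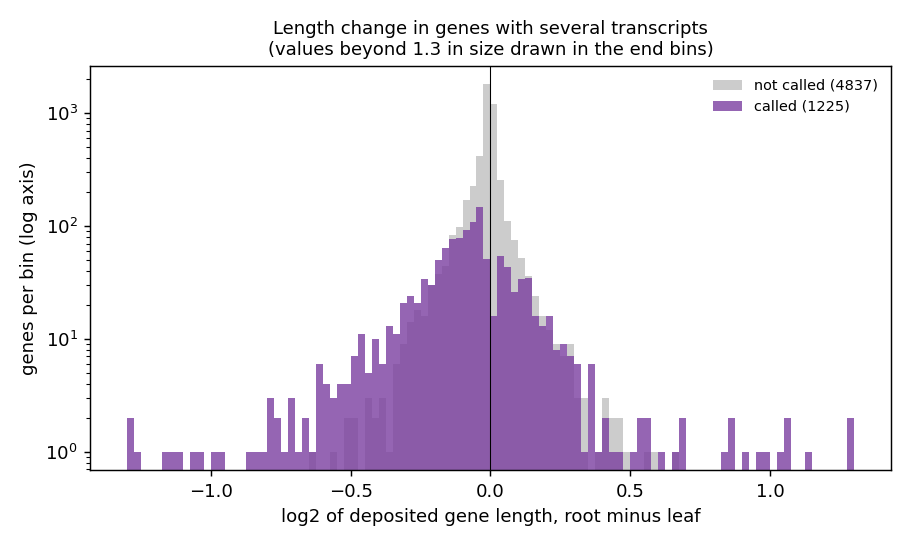
Histogram of the log2 difference in deposited length, root minus leaf, for 6062 genes with several transcripts (vertical log axis, genes per bin); purple bars are the 1225 genes called by limma and grey bars the other 4837. The purple bars reach further and stand higher to the left of 0, where 909 genes were shorter in root, than to the right, where 316 were longer.

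A pair of genes shows a length change with no called change in level; they were chosen after their values were seen, as the largest such changes at 10 CPM or more in every library. Cs4g01170, listed with 3 transcripts, had a deposited length of 1776 and 1844 bases in root and of 4240 and 4425 bases in leaf. Its level was alike, at 113 and 100.2 CPM in root and 97.2 and 103.3 CPM in leaf. The log2 length differed by -1.26 ± 0.04 (SE, adjusted p = 0.0067, limma), while the log2 fold change of its level was 0.09 ± 0.12 (SE, edgeR adjusted p = 0.489). Cs9g03430, listed with 2 transcripts, went the other way, with 4049 and 4073 bases in root and 2156 and 1988 bases in leaf. Its log2 length differed by 0.97 ± 0.05 (SE, adjusted p = 0.013, limma) and its level by 0.22 ± 0.13 (SE, edgeR adjusted p = 0.145).

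Fewer genes with several transcripts had a fractional length in root. Among the 6430 genes the share was 69.5% and 70.0% in the root libraries and 82.2% and 83.0% in the leaf libraries. The median count of these genes was lower in root (305 and 314) than in leaf (489.5 and 484). In 650 genes the length was fractional in both leaf libraries and whole in both root libraries, and 163 showed the reverse. On the reading above, a whole length arises when reads fall on 1 transcript, or on transcripts of equal length. Among 634 genes with at least 1000 counts in every library, where the median count was higher in root (2074 and 2131) than in leaf (1881 and 1830), the share was 82.3% and 81.9% in root and 89.3% and 90.2% in leaf. The part of depth per gene in this gap was not tested. Whether transcripts that are specific to one species, or differ in sequence between them, take part in this was not tested.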

How the data were processed

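Per the file headers, each library's table lists genes with their transcripts, length in bases, expected count and FPKM. The expected (estimated) counts were deposited without scaling to depth, and 74.1% to 76.5% of them were whole within 0.005. The deposited FPKM values were scaled by the authors by length and library size. The libraries were made from oligo(dT)-selected RNA copied with random hexamers, per the labels' protocols. Not given in the sources used here: aligner, counter, annotation and strandedness, so overlapping genes and near copies are uncertain.

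The 2 Pt+LL_root and 2 Pt+LL_leaf tables were read; a gene that a table does not list entered with 0. Expected counts were rounded and tested with edgeR 4.0.16 (limma 3.58.1, R 4.3.3), TMM and filterByExpr, which left 5259 IDs untested; TMM factors were 0.863 and 0.897 in root and 1.12 and 1.15 in leaf, and CPM values use them. Standard errors are the log2 fold change over the root of F. Length was tested with limma. Alternatives included DESeq2 1.42.0. The fits were run on simulated data in which 200 genes were changed. Far more were called here, so those runs do not check the scaling or the calls in these libraries. Replicates differed by more than sampling noise (chi-square per degree of freedom 5.07 in root, 8.59 in leaf). Named genes are, per direction, the called gene with the largest difference in share of counts and the called gene of largest log2 fold change that had counts in all 4 libraries and reached 3 in mean log2 CPM. The comparison, classes and lists were chosen with earlier results of these data known. The lists of marker genes by description could not be applied, since no table pairs the IDs. Counting intervals and floors cover counting error only.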

Additional observations from a re-analysis of the deposited data

How the results depend on the processing

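The number of genes called between root and leaf ran from 14880 (DESeq2's Wald test) to 16666 (no filter) over the other scalings, tools, filters and scales tried, and was 14979 to 15519 without 1 library; on genes with whole counts in all 4 libraries, chosen after seeing the data, it was 11610 of 14027. In 11 fits (5 scalings, DESeq2, the block and each library left out) 13420 genes were called with 1 sign in every fit, 5997 higher and 7423 lower in root. The share of calls that were higher in root lay between 37.8% and 48.0%. The 2-fold threshold test called 10097 to 10475 genes without 1 library and, at a 4-fold threshold, 6401. On log2(FPKM + 1) 4 genes were called in both fits with opposite signs, and with total-count scaling 0. The 57 recomputed values of the 4 named genes all kept their sign. These genes were picked for the largest differences in these same libraries, so this outcome was largely fixed by the choice. With a count minimum of 10, 20 and 50, genes listed in one organ were 375, 272 and 160 for root and 840, 638 and 411 for leaf, since rare genes drop out. As a share of summed FPKM the most abundant gene took 4.29% in root, the top 10 genes 9.09% in root and 5.35% in leaf, the top 100 21.4% and 17.7%, and the top 1000 45.3% in leaf. Deviations of same-numbered root and leaf libraries from their organ means had r = -0.02 across genes. This value cannot show whether same-numbered libraries share a tree. With the replicate number as a block 15998 genes were called, 10605 at the 2-fold threshold, and limma's length test called 0 of 6062 genes, with 1854 at an unadjusted p under 0.05 (506 longer and 1348 shorter in root; 632 and 1642 without the block). Length calls ran from 248 to 675 without 1 library, 1159 with at least 50 counts and 1268 with a variance trend. The cause of the spread was not tested. This includes the part of residual degrees of freedom, which are fewer without 1 library or with the block.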

Other observations

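Genes with a large difference often had a neighbour by ID with a large difference in the same direction. Among 16475 tested IDs of the form CsNgN, 3875 (23.5%) were at least 4-fold lower in root, and of the 3873 that had a next tested ID with the same start, 1258 (32.5%) were followed by another such gene. For genes at least 4-fold higher in root the numbers were 2513 IDs (15.3%) and 600 of 2511 (23.9%). Runs of 5 or more consecutive tested IDs numbered 50 for genes lower in root, with 308 IDs and a longest run of 14, and 14 for genes higher in root, with 78 IDs and a longest run of 7. More IDs were lower than higher in root, and the number of runs these shares alone would give was not worked out. Consecutive IDs were taken in order of their number; whether such genes are near copies that share reads was not tested.

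Genes whose counts were fractional, as when reads are divided between genes, differed more strongly than genes with whole counts. Of 5517 tested genes with a fractional count in at least 1 library, 19.2% were higher in root by 4-fold or more, and 31.7% lower by as much. Of 14027 genes with whole counts in all 4 libraries the shares were 13.2% and 21.9%. The median level was 8.64 CPM in the first group and 24.3 CPM in the second. Whole-count genes held 69.5% and 70.1% of counts in the root libraries and 81.6% and 81.9% in the leaf libraries, counted per library. Of the counts on genes other than Cs7g25130 they held 77.8% and 77.9% in root and 81.7% and 82.0% in leaf.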
